A study of Sus scrofa with 8 samples.

Results

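The m6A peaks labelled as lying in the 5′ untranslated region (UTR) were taken from the deposited peak lists of 4 pig adipose tissue samples, by the part of the transcript that the lists give for each peak. There were 3806 such peaks among 64752 in all, and they lay on 1646 of the 9977 genes that had any peak (16.5%). The tissue came from male pigs aged 180 days: 2 of the Jinhua breed, described in the labels as fatty, and 2 of the Landrace breed, described as leaner. Each animal gave an immunoprecipitated library, in which sonicated mRNA was pulled down with an antibody against m6A, and an input library, so there were 8 libraries in all. The 5′ UTR peaks numbered 1119 and 763 in Jinhua replicates 1 and 2, against 641 and 1283 in Landrace replicates 1 and 2. The muscle lists of the same study are not analysed here.

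N6-methyladenosine (m6A) is a methyl mark that the METTL3-METTL14 complex places on adenosines of mRNA, mostly late in the coding sequence and early in the 3′ UTR. In the 5′ UTR it has been studied above all in translation, where the initiation factor eIF3 can bind it and start translation without the cap-binding protein eIF4E. Antibodies against m6A also bind m6Am, a cap-adjacent nucleotide written by PCIF1, so at the first base of a transcript the marks cannot be told apart in such data. No nucleotide sequence was used here, and the peaks are given by their positions on the transcript, counted from its first base in the 5′ to 3′ direction. The lists hold no height, score or p-value, so a peak can be described only by its presence, position and width.

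The animals differed in other ways than breed. The peak lists held 20688 and 16116 peaks in Jinhua, against 8909 and 19039 in Landrace, so the shortest list was that of Landrace replicate 1. Adipocyte markers (13 of 17 listed genes were matched by name, among them PPARG, PLIN1 and CIDEC) summed to 5926.9 and 8901.7 FPKM in Jinhua inputs, against 11563.7 and 8577.6 in Landrace inputs, where FPKM, the unit the values were taken to be in, is a read count scaled to transcript length and library size. The 14 skeletal muscle markers measured summed to 116.4 and 168.2 FPKM in Jinhua and to 101.7 and 3417.8 in Landrace, so Landrace replicate 2 stood apart. None of those 14 genes had a 5′ UTR peak in any animal. In some other genes Jinhua replicate 1 and Landrace replicate 2, the animals with the longest lists, stood apart together. HSD17B13 input was 150.5 and 0.275 FPKM in Jinhua, against 0 and 65.0 in Landrace. KNG1 input was 111.4 and 0.129 FPKM in Jinhua, against 0 and 45.2 in Landrace. Epithelial markers (5 genes matched) summed to 101.8 and 11.4 FPKM in Jinhua and to 5.85 and 24.4 in Landrace. Whether other tissue was present was not tested. Read numbers are unknown, and fewer cells of a type and less RNA per cell cannot be told apart in such bulk tissue.

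The 5′ UTR peaks were mostly close to the start of the transcript. Their starts had a median of 86 and 90 bases from the first base in Jinhua, and of 86 and 81 bases in Landrace. A start within the first 100 bases was recorded for 52.5% and 52.4% of them in Jinhua, against 53.0% and 55.7% in Landrace. Peaks that began at the first base itself made up 19.4% (95% Wilson interval 17.2 to 21.8) and 16.4% (13.9 to 19.2) in Jinhua, against 15.1% (12.6 to 18.1) and 16.6% (14.7 to 18.7) in Landrace. The intervals cover counting error only, and this share overlapped between the breeds. A start past base 500 was found for 9.20% and 9.70% of Jinhua peaks and for 8.11% and 8.26% of Landrace peaks, so by this limit and by that of 100 bases the animals of the breeds did not overlap, by small margins that were not tested.

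**Figure D1:**
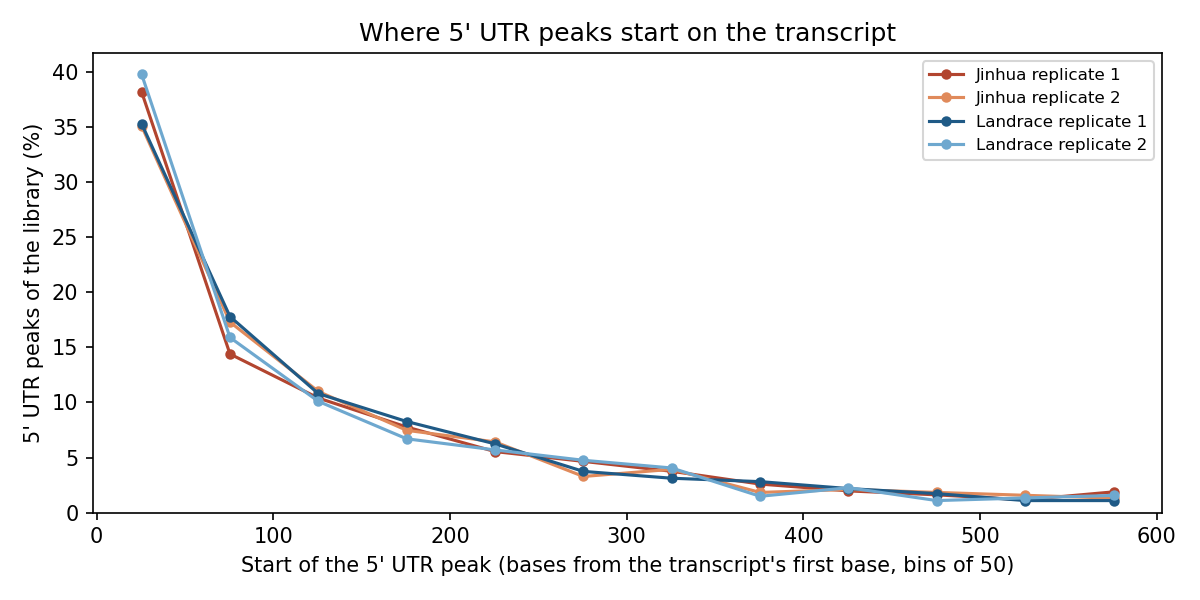
Percent of a library's 5′ UTR peaks (vertical axis) that start in each bin of 50 bases from the first base of the transcript (horizontal axis, first 600 bases), with 1 line per animal. In all 4 animals the first bin is the fullest, at 35.1% to 39.8%, and the lines of the breeds cross.

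On 1304 transcripts a 5′ UTR peak and a coding peak were both listed, and the midpoints ran in the order of the transcript on 1294 of them (99.2%). On 427 of them (32.7%) a 5′ UTR peak reached past the start of the first coding peak, so intervals with different labels overlapped there. Of all 5′ UTR peaks, 77.9% overlapped a 5′ UTR peak of another animal and 16.4% overlapped a coding peak of another animal, and for 238 (6.25%) every overlapping partner had another label. Where 5′ UTR peaks of different animals overlapped, their midpoints lay a median of 16.0 bases apart, against 19.5 for coding peaks and 16.0 for 3′ UTR peaks.

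The peaks were slightly narrower than other peaks. Their median width was 154 bases in every animal, against 156 and 158 bases for the other peaks in Jinhua and 162 and 156 in Landrace. The difference averaged -4.00 bases and had the same sign in 4 of 4 animals, with p = 0.125 in an exact two-sided sign-flip permutation test, the smallest p that 4 animals allow. Widths over 200 bases were found for 3.66% and 6.55% of 5′ UTR peaks in Jinhua and for 7.96% and 4.75% in Landrace, against 6.86%, 14.5%, 18.8% and 8.36% of the other peaks of the same animals.

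Most genes carried 1 such peak per animal. A gene with 2 or more was found in 11.4% and 8.89% of the 5′ UTR genes of Jinhua, against 8.25% and 9.29% in Landrace, with at most 6 on a transcript. Of the 415 pairs of neighbouring 5′ UTR peaks on a transcript in the same list, 125 (30.1%) touched with no base between them. Numbers of peaks on a transcript are therefore numbers of listed intervals.

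The gene with the most 5′ UTR peaks held them far from the transcript start. TNXB, which encodes the extracellular matrix protein tenascin-X, had 22 peaks over the 4 lists, all of them labelled 5′ UTR. In Jinhua replicate 1 they ran at bases 1225-1389, 1577-1756, 1928-2106, 2876-3051, 3130-3395 and 3991-4090. The first 5 of these positions were found again in each of the other 3 animals, as 1271-1431 to 3123-3384 in Jinhua replicate 2, 1242-1413 to 3201-3410 in Landrace replicate 1 and 1260-1416 to 3133-3411 in Landrace replicate 2. The sixth peak lay elsewhere in Landrace replicate 2, at 4376-4526. Input TNXB was 19.5 and 22.5 FPKM in Jinhua, against 52.9 and 48.1 FPKM in Landrace. Both Landrace values were above both Jinhua values, but the limma test across all genes gave an adjusted p of 0.496.

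KMT2A, a histone H3 lysine 4 methyltransferase, held the 5′ UTR peaks farthest from a transcript start. A peak at 5882-6058 and 5880-6052 in Jinhua, and at 5877-6057 and 5882-6059 in Landrace, was common to the 4 animals. Landrace replicate 1, the animal with the shortest list, had no other 5′ UTR peak there. The other 3 animals shared 3 further places, among them 3541-3696 and 3546-3701 in Jinhua and 3542-3697 in Landrace replicate 2. Input KMT2A was 14.7 and 11.4 FPKM in Jinhua, against 8.22 and 9.81 in Landrace.

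HLCS, the enzyme that attaches biotin to carboxylases such as those of fatty acid synthesis, had 18 5′ UTR peaks between bases 1 and 1400 and 12 peaks elsewhere. BRD2, a bromodomain reader of acetylated histones, had 14, with regions at 436-716, 735-927 and 1198-1642 that each held a peak of all 4 animals. In the last region the peaks of Jinhua replicate 2 (1228-1443) and Landrace replicate 1 (1486-1642) did not overlap each other, and were joined through peaks of other animals. HLCS input was nearly level, at 47.0 and 43.2 FPKM in Jinhua and 48.3 and 45.4 FPKM in Landrace. PPP3CA, the catalytic subunit of calcineurin, had 12 peaks, all of them labelled 5′ UTR, 3 per animal. A gene that the lists name THSD7B and the name table names SPON1 (ENSSSCG00000013393) had 13, and its name is therefore uncertain.

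**Figure D2:**
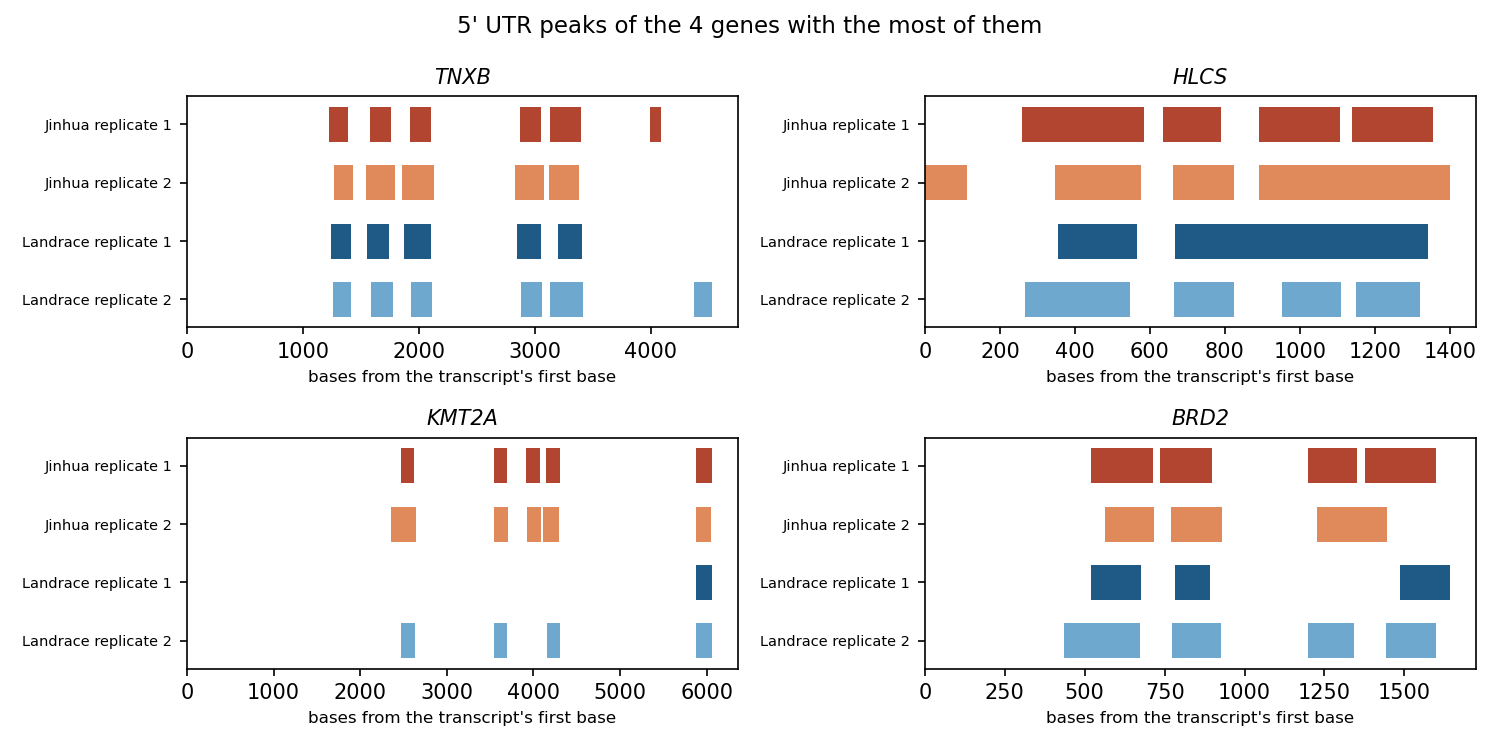
Positions of 5′ UTR peaks on the transcripts of TNXB, HLCS, KMT2A and BRD2, in bases from the first base of the transcript (horizontal axis), with 1 row per animal, Jinhua above Landrace. Bars are peaks to scale; the first 5 TNXB intervals recur in each animal, and touching intervals appear as 1 bar.

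In all, 81 of the 5′ UTR peaks (2.13%), on 12 genes, started past base 1000. These include TNXB, KMT2A, HLCS, BRD2 and THSD7B. On 249 of the 1646 genes (15.1%) every listed peak was labelled 5′ UTR, and 37 of those 249 had one in all 4 lists. The label rests on the authors' annotation of 1 transcript per gene, which was not used here, so how long these 5′ UTRs are was not tested.

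Overlapping 5′ UTR peaks of the 4 lists were joined to 1862 regions. Peaks were joined from one to the next, so those of a region need not all overlap each other. Of the 1862 regions, 234 (12.6%) were found in all 4 animals, 339 in 3, 448 in 2 and 841 in a single animal. Among regions of every part of the transcript, 16.8% were found in all 4. Without Landrace replicate 1, whose list is the shortest, 430 regions were found in each of the other 3 animals. By gene, 236 genes had a 5′ UTR peak in every animal, 321 in 3, 395 in 2 and 694 in 1.

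The 12 most abundant genes with a symbol that were marked in all 4 animals are described next, beginning with enzymes that act on lipids. ELOVL6, which elongates saturated fatty acids made by fatty acid synthase, had a single peak per animal and none elsewhere. It lay at 1-121 and 1-145 in Jinhua and at 1-136 and 1-121 in Landrace. ELOVL6 input was 529.9 and 859.6 FPKM in Jinhua, against 347.1 and 432.7 FPKM in Landrace, so the breeds did not overlap, with an adjusted p of 0.496 or more for every gene named here (limma).

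HSD17B12, which acts in very long chain fatty acid elongation, was marked at 101-302 and 114-305 in Jinhua and at 102-272 and 101-258 in Landrace. GPAT4, a glycerol-3-phosphate acyltransferase of triglyceride synthesis, was marked at 428-580 and 415-588 in Jinhua and 435-610 and 432-583 in Landrace. The other 3 animals had a further touching pair in GPAT4 from base 2 or 5 to base 271, while Landrace replicate 1 had none there. CHPT1, which makes phosphatidylcholine, was marked from base 1 in each animal, to bases 138 and 132 in Jinhua and to 139 and 127 in Landrace. GPAT4 input was 296.3 and 348.9 FPKM in Jinhua, against 490.6 and 296.9 in Landrace.

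PDK4, the kinase that restrains pyruvate dehydrogenase, had peaks at 33-188 and 36-191 in Jinhua, against 33-192 and 36-191 in Landrace, and Jinhua replicate 2 and Landrace replicate 2 thus shared a peak base for base. MPC2, a subunit of the mitochondrial pyruvate carrier, had a peak at 572-721 and 591-744 in Jinhua and at 578-731 and 586-734 in Landrace, and Jinhua replicate 1 alone had a further peak at 101-210. SLC2A4, the insulin-responsive glucose transporter GLUT4 and a member of the insulin signalling list, was marked from base 1 to 117 and 120 in Jinhua and to 116 and 116 in Landrace. SLC2A4 input was 41.6 and 110.8 FPKM in Jinhua, against 117.5 and 110.6 in Landrace. The low value was that of Jinhua replicate 1. SLC1A5, a glutamine transporter, held a peak at 267-447 and 265-455 in Jinhua and at 278-463 and 277-452 in Landrace. A further touching peak lay at 26-264 in Jinhua replicate 2 and at 58-277 and 73-276 in Landrace, while Jinhua replicate 1 had none there.

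FTL, the ferritin light chain, was the most abundant gene marked in every animal. Its peak lay at 26-170 and 29-185 in Jinhua and at 20-175 and 25-140 in Landrace. FTL input was 16177.8 and 7864.0 FPKM in Jinhua, against 9333.3 and 6371.1 in Landrace. EIF1, the start codon selection factor of translation initiation, was marked at 1-123 and 1-127 in Jinhua and at 1-143 and 1-143 in Landrace. EIF1 input ranged only between 556.2 and 703.4 FPKM. PFN1, the actin-binding protein profilin, was marked at 35-186 and 41-190 in Jinhua and at 36-188 in both Landrace animals.

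Among matrix genes, COL1A2, a chain of type I collagen, had a peak from base 1 to 100 and 128 in Jinhua and to 120 and 110 in Landrace. LAMC1, a laminin chain of basement membranes, had peaks at 39-194 and 73-229 in Jinhua and at 96-474 and 68-247 in Landrace, where replicate 2 held another at 316-474. COL1A2 input was 385.3 and 998.7 FPKM in Jinhua, against 313.0 and 3379.7 FPKM in Landrace. The highest value was that of Landrace replicate 2, the animal with high muscle markers, whose part in it was not tested.

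Genes were also grouped by role in 23 lists, and 10 of these held no gene with a 5′ UTR peak. Set beside the 16.5% of all genes with a peak, immediate early genes held the highest count: 7 of 16 with any peak (BTG1, FOSL2, JUN, JUNB, KLF4, KLF6 and MYC). The counts of the other lists below are to be read beside the same share, and none was tested. Of the 7 immediate early genes, only JUN and JUNB had one in all 4 animals, and KLF6 had it in Jinhua replicate 2 alone. JUN, a subunit of the AP-1 transcription factor, was marked at 515-669 and 531-667 in Jinhua and at 481-609 and 455-667 in Landrace, and the Jinhua animals had a further peak each, at 864-1140 and 921-1040. JUNB, its paralogue, was marked at 49-210 and 64-217 in Jinhua and at 83-252 and 80-236 in Landrace. JUNB input was 65.3 and 18.6 FPKM in Jinhua, against 370.7 and 33.7 in Landrace, so 1 animal carried the high level. FOSL2, KLF4 and JUN did not share a pattern: FOSL2 and KLF4 had a 5′ UTR peak in the Landrace animals and in neither Jinhua animal, while JUN had one in each animal.

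Of 11 genes of the integrated stress response with a peak, 4 had one in the 5′ UTR, namely EIF2AK2, EIF2AK3, EIF2S1 and PPP1R15B. This pathway phosphorylates eIF2 and slows translation initiation. EIF2S1 had its 5′ UTR peak in Jinhua replicate 1 alone, at a mean input of 2.99 FPKM, and EIF2AK2 had none in Landrace replicate 1. The first coding peak listed for EIF2S1 in any animal began at base 87, inside the 5′ UTR peak at 7-160. EIF2AK3, the kinase PERK, was marked at 77-230 and 79-234 in Jinhua and at 141-240 and 77-231 in Landrace. PPP1R15B, a subunit of the phosphatase that reverses the step, was marked at 398-610 and 421-611 in Jinhua and at 611-760 and 566-722 in Landrace, where Jinhua replicate 2 had a touching interval at 612-809. Another list held factors linked to 5′ UTR m6A (eIF3 subunits, ABCF1 and the eIF4F subunits EIF4E, EIF4G1 and EIF4A1), and of its 14 genes with a peak EIF4G1 had one in the 5′ UTR, at 25-168 in Landrace replicate 2. Initiation factors outside that list were marked too, EIF1 among them.

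Insulin and growth factor signalling held 4 of 16 (FOXO1, GRB2 and SLC2A4 among them). FOXO1, a transcription factor held back by insulin, was marked at 229-407 and 232-426 in Jinhua and at 110-248 in Landrace replicate 1. The first coding peak listed for FOXO1 in any animal began at base 249, inside both Jinhua intervals. Ubiquitin pathway genes held 4 of 16 (CBLB, CUL3, HUWE1 and MDM2) and chromatin regulators 4 of 20 (KMT2A, MED1 and SMARCA4 among them). For lists of this size these counts were near the 16.5% of all genes with a peak. CBLB and SMARCA4 had theirs in Jinhua replicate 2 alone. CUL3, a cullin scaffold of ubiquitin ligases, was marked at 1-156 and 5-160 in Jinhua and at 4-159 and 14-169 in Landrace. HUWE1, a large ubiquitin ligase, had 53 peaks over the lists, of which 4 were in the 5′ UTR.

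Genes that define the fat cell were next. None of the 12 adipocyte identity genes with a peak and none of the 22 cytosolic ribosomal protein genes with a peak had it in the 5′ UTR. Of 14 genes with a peak in the list for fatty acid and triglyceride synthesis, ELOVL6 and SCD had one, and of 8 in the list for lipolysis PNPLA2 had one. The first list leaves out GPAT4 and HSD17B12, described above. SCD, the stearoyl-CoA desaturase, was marked at 465-616 in Jinhua replicate 1 and at 453-606 in Landrace replicate 2. The first coding peak listed for SCD in any animal began at base 464, so a coding label also fell on this place. Whether the same site was marked in the other animals was not tested. PNPLA2, the adipose triglyceride lipase, was marked at 1-150 in Jinhua replicate 1 and at 51-150 and 1-150 in Landrace.

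In the m6A pathway, METTL3, the catalytic writer, was the only one of 9 writer complex genes marked there, at 40-221 in Jinhua replicate 1. PCIF1, the m6Am writer, was marked at 357-513 in Jinhua replicate 2 and at 301-400 and 354-507 in Landrace. None of the 4 reader and eraser genes with a peak was marked. Heat shock genes, whose 5′ UTR m6A has been studied after heat stress in mouse and human cells, held 2 of 15, with HSPA4 in Jinhua replicate 1 and HSPD1 in Landrace replicate 2. Among other cell types' markers, endothelial PECAM1 had a 5′ UTR peak in Landrace replicate 1. Macrophage CSF1R had one in Jinhua replicate 1 and Landrace replicate 1. The first coding peaks listed in any animal began at base 88 in PECAM1 and at base 49 in CSF1R. These starts fell inside the 5′ UTR peaks at 25-181 and 33-203, so the label differed at places that were not free of peaks. Markers of smooth muscle, lymphocytes, blood, adipose progenitors, epithelium and nerve had none, among 8, 5, 2, 7, 3 and 3 genes with any peak. Beside the 16.5% of all genes with a peak, lists this short can hold none without standing apart. Outside the blood list, the globin gene HBQ1 had a 5′ UTR peak in Landrace replicate 2.

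The breeds were then compared. The 5′ UTR took a smaller share of the peaks of Jinhua animals. The share was 5.41% and 4.73% in Jinhua, against 7.19% and 6.74% in Landrace, with means of 5.07% ± 0.477 and 6.97% ± 0.323 (SD, n = 2 each). The difference was -1.90 points, and the groups did not overlap. An exact two-sided permutation test gave p = 0.333, the smallest that 2 against 2 animals allow, so no such difference can pass 0.05 here.

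The shares were also separate on genes common to the lists. On the 4160 genes that had a peak in each of the 4 lists, the share was 5.08% and 4.22% in Jinhua, against 7.19% and 6.43% in Landrace (4.65% ± 0.605 and 6.81% ± 0.543, SD, n = 2 each; exact permutation p = 0.333). Those genes were divided into 4 equal classes by mean input level (1040 genes each), and both Jinhua animals were below both Landrace animals in each class. In the lowest class the share was 5.23% and 4.72% in Jinhua, against 8.04% and 6.94% in Landrace, and in the highest class it was 3.96% and 3.24% in Jinhua, against 5.64% and 5.42% in Landrace. Counted by gene, a 5′ UTR peak was present on 12.8% and 9.74% of the 4160 genes in Jinhua, against 12.7% and 16.1% in Landrace, so here Jinhua replicate 1 was level with Landrace replicate 1. Without Landrace replicate 2, the animal with high muscle markers, the difference in share was -2.12 points over all genes.

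**Figure D3:**
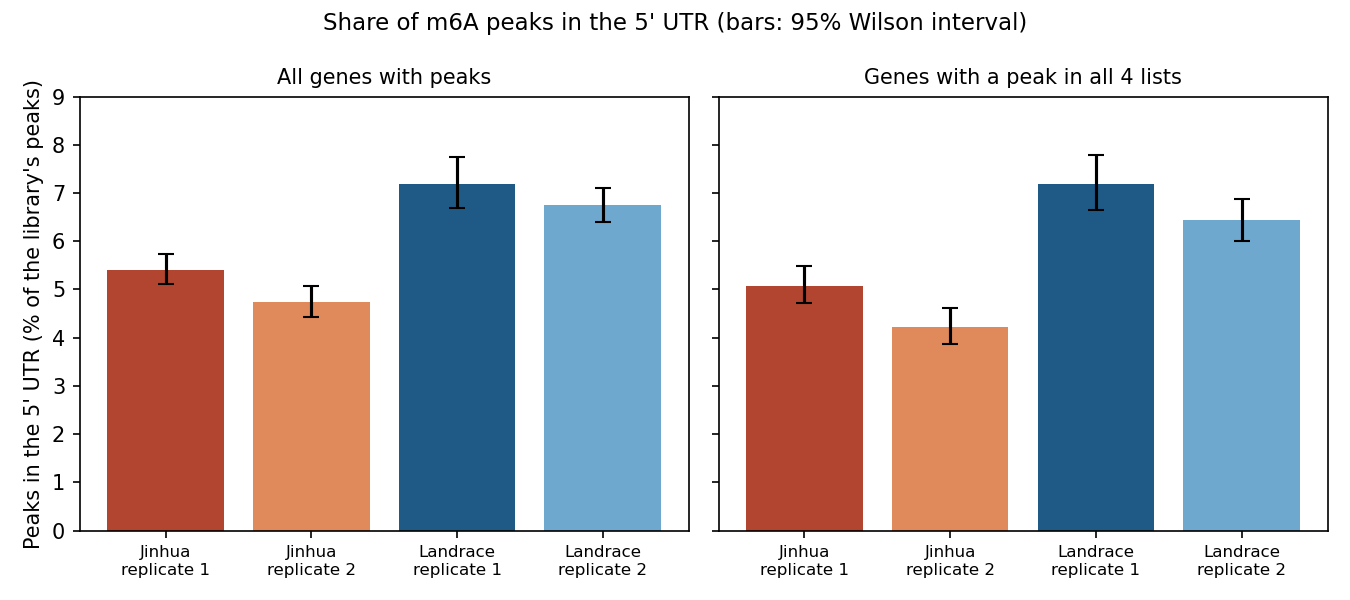
Share of each library's m6A peaks that lie in the 5′ UTR (vertical axis, percent), for all genes and for genes with a peak in all 4 lists, with 1 bar per animal, Jinhua left of Landrace, and 95% Wilson intervals. Both Jinhua bars (5.41% and 4.73%) are below both Landrace bars (7.19% and 6.74%) in the left panel, and likewise in the right panel.

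Regions found in 1 breed alone were then counted. In all genes, 96 of the 1862 regions (5.16%) were found in both Jinhua animals and neither Landrace animal, beside 7.07% of regions of every part. In both Landrace animals and neither Jinhua animal there were 111 (5.96%), beside 2.47%. On the genes with a peak in each list, the counts were 39 of 1037 for Jinhua (3.76%, beside 5.37% of regions of every part) and 90 for Landrace (8.68%, beside 3.20%). This requirement removes more Jinhua regions by construction, since their genes then need another peak in Landrace replicate 1, the shortest list. Any peak on the transcript in the other breed was found for 59 of the 96 Jinhua regions and for 99 of the 111 Landrace regions. Coding regions of those genes had the opposite order, with 592 for Jinhua and 351 for Landrace, and so had 3′ UTR regions, with 234 and 70. With a list left out fewer lists must agree, and these counts rose by amounts that differed with the list. Without Jinhua replicate 1 or 2 there were 232 or 333 Jinhua regions, and without Landrace replicate 1 or 2 there were 120 or 292. Of Landrace regions there were 205 or 136 without Jinhua replicate 1 or 2, and 491 or 231 without Landrace replicate 1 or 2.

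**Figure D4:**
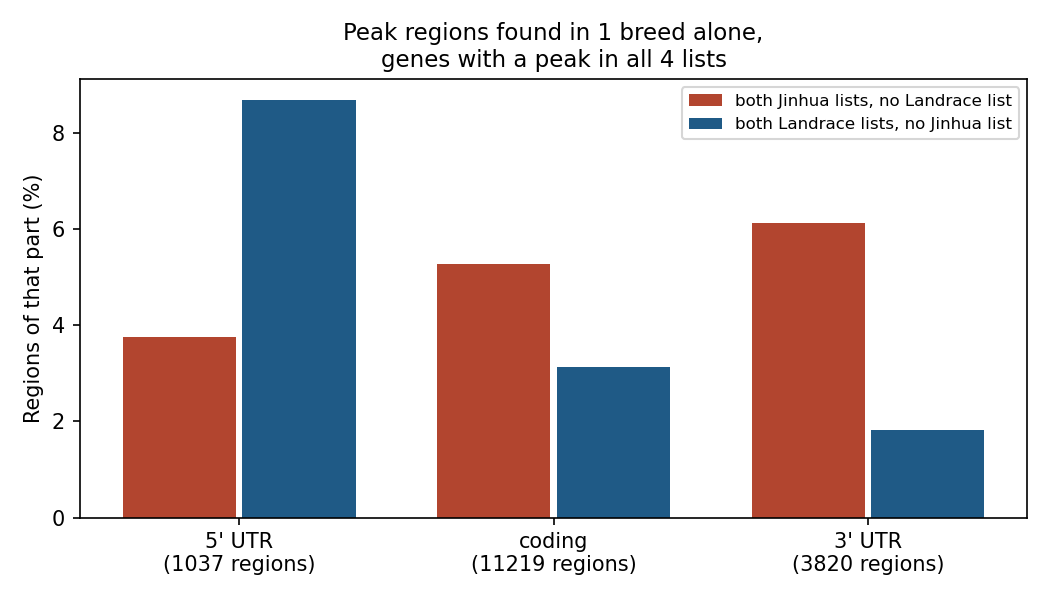
Percent of merged peak regions (vertical axis) found in both animals of 1 breed and neither of the other, for 5′ UTR, coding and 3′ UTR regions of genes with a peak in all 4 lists. Jinhua (left bar of each pair) is below Landrace in the 5′ UTR (3.76% and 8.68%) and above it in the other parts. The requirement of a peak in all 4 lists removes more Jinhua than Landrace 5′ UTR regions, and over all genes the values are 5.16% and 5.96%.

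Overlap between pairs of animals showed where the lists parted. Of the 5′ UTR peaks of Jinhua replicate 1, 39.9% and 73.5% were overlapped by a peak of Landrace replicates 1 and 2, beside 34.2% and 69.7% of its coding peaks. For Jinhua replicate 2 these were 43.4% and 71.6%, beside 40.4% and 65.5%. Seen from Landrace the order turned round. Of the 5′ UTR peaks of Landrace replicate 1, 67.1% and 57.6% were overlapped by Jinhua replicates 1 and 2, beside 76.0% and 70.8% of its coding peaks. For Landrace replicate 2 these were 64.2% and 48.2%, beside 74.7% and 56.0%. Within a breed, 5′ UTR peaks and coding peaks differed by -0.0641 to 3.28 points in their overlap. Between breeds, the counts of overlapped 5′ UTR peaks were close in both directions. They were 446 and 430 for Jinhua replicate 1 with Landrace replicate 1, and 823 and 824 with Landrace replicate 2. For Jinhua replicate 2 they were 331 and 369, and 546 and 619. The percentages thus also depend on how many 5′ UTR peaks each list holds, and are not independent of the difference in 5′ UTR share. None of these pairwise values was tested.

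Over all partners, 85.9% and 86.5% of 5′ UTR peaks overlapped a peak of another animal in Jinhua, against 91.1% and 77.8% in Landrace. The other peaks of the same animals did so in 82.4%, 83.7%, 92.6% and 84.0% of cases. The difference averaged -0.336 points over the 4 animals (exact sign-flip permutation p = 1.0), with both Jinhua animals above 0 and both Landrace animals below. Its sign turned without Jinhua replicate 1 (0.831 points) and on genes with a peak in each list (0.345 points).

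Some regions of 1 breed were not free of peaks in the other breed. Of the 96 Jinhua regions, 19 were overlapped by a Landrace peak with another label, and of the 111 Landrace regions 28 were overlapped by such a Jinhua peak. That left 77 Jinhua regions with no Landrace peak at that place (4.14% of 5′ UTR regions, beside 6.57% of regions of every part) and 83 Landrace regions with no Jinhua peak there (4.46%, beside 2.16%). On genes with a peak in every list, a requirement that again removed more Jinhua regions, there were 22 Jinhua regions (2.12%, beside 4.76%). Landrace regions numbered 64 there (6.17%, beside 2.69%). The most abundant genes of each kind that carried peaks elsewhere in all 4 animals show both cases.

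In Jinhua, 17 genes with a symbol had this pattern, and the 6 most abundant were RTN3, LAPTM4B, RHOB, STAT3, ST6GALNAC6 and RAB21. STAT3, the transcription factor of leptin and interleukin-6 signalling, was marked at 1-100 in both Jinhua animals, while a coding peak covered 21-176 and 1-171 in Landrace. LAPTM4B, a lysosomal membrane protein, was marked at 1-119 in both Jinhua animals, with coding peaks at 24-182 and 1-160 in Landrace. RTN3, a reticulon of the endoplasmic reticulum, was marked at 31-186 and 39-194 in Jinhua, with coding peaks at 75-337 and 92-331 in Landrace. In these 3 the place was thus not free of Landrace peaks, though in RTN3 those peaks began later and ran further. Whether the same site was marked in both breeds was not tested. RAB21, a small GTPase of endosomes, had a coding peak at 181-473 in Landrace replicate 2. RHOB, a small GTPase, had no overlapping peak in Landrace. Its peaks lay at 11-153 and 11-157 in Jinhua, and its input was 119.7 and 95.6 FPKM in Jinhua, against 243.9 and 122.7 FPKM in Landrace. ST6GALNAC6, a sialyltransferase of glycolipids, was likewise free of Landrace peaks there, with peaks at 41-160 and 53-210 in Jinhua and another at 241-420 in Jinhua replicate 1.

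In Landrace the same pattern held for 51 genes with a symbol. Both this count and the 17 of Jinhua require peaks elsewhere in all 4 lists, the shortest among them. Without that requirement, and with or without a symbol, 77 of the 1646 genes had the Jinhua pattern and 101 the Landrace pattern. The same counts by gene for other parts of the transcript were not made. The 6 most abundant of the 51 were CTSB, YWHAB, MORF4L1, ENG, PFKFB3 and FGFR1. Of these, CTSB, YWHAB, ENG and FGFR1 had no overlapping peak in either Jinhua animal. CTSB, the lysosomal protease cathepsin B, was marked at 1-130 and 31-130 in Landrace. CTSB input was 568.3 and 550.4 FPKM in Jinhua, against 377.3 and 794.0 in Landrace, so the levels overlapped. YWHAB, a 14-3-3 adaptor protein, was marked at 107-268 and 105-259 in Landrace, and its input was 183.8 and 141.9 FPKM in Jinhua, against 115.4 and 126.0 FPKM in Landrace. ENG, the TGF-beta co-receptor endoglin of endothelium, was marked at 69-238 and 76-242 in Landrace, with input of 84.8 and 77.0 FPKM in Jinhua and 133.5 and 103.8 in Landrace. FGFR1, a fibroblast growth factor receptor, was marked between bases 1 and 505 in both Landrace animals. Its input was 79.7 and 94.2 FPKM in Jinhua, against 97.5 and 99.3 in Landrace. MORF4L1, a chromatin protein, and PFKFB3, a regulator of glycolysis, had a coding peak in Jinhua replicate 1 over the place, at 56-212 and 1-399.

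Genes with 5′ UTR peaks had input levels slightly below those of other genes with peaks and above those of genes without. Their median input was 14.5 and 14.9 FPKM in Jinhua, against 22.3 and 13.3 FPKM in Landrace. Genes with peaks elsewhere alone had medians of 16.1 and 17.5 FPKM in Jinhua and of 27.4 and 16.1 FPKM in Landrace. Genes without a peak and with a mean FPKM of at least 1 had 4.24 and 3.51 FPKM in Jinhua and 4.51 and 3.94 FPKM in Landrace. Depth is unknown, so whether too few reads kept peaks from being listed on those genes could not be tested. Between the marked classes the difference in median log2(FPKM + 1) was -0.14 and -0.22 in Jinhua and -0.28 and -0.26 in Landrace. It averaged -0.226 and was negative in 4 of 4 animals, with p = 0.125 (exact sign-flip permutation test, two-sided), the smallest p possible. Among genes with exactly 1 peak the average was -0.506, against -0.226 over all genes with peaks, so its size depended on the number of peaks per gene. Landrace replicate 1, with the shortest list, had the highest medians in both marked classes.

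**Figure D5:**
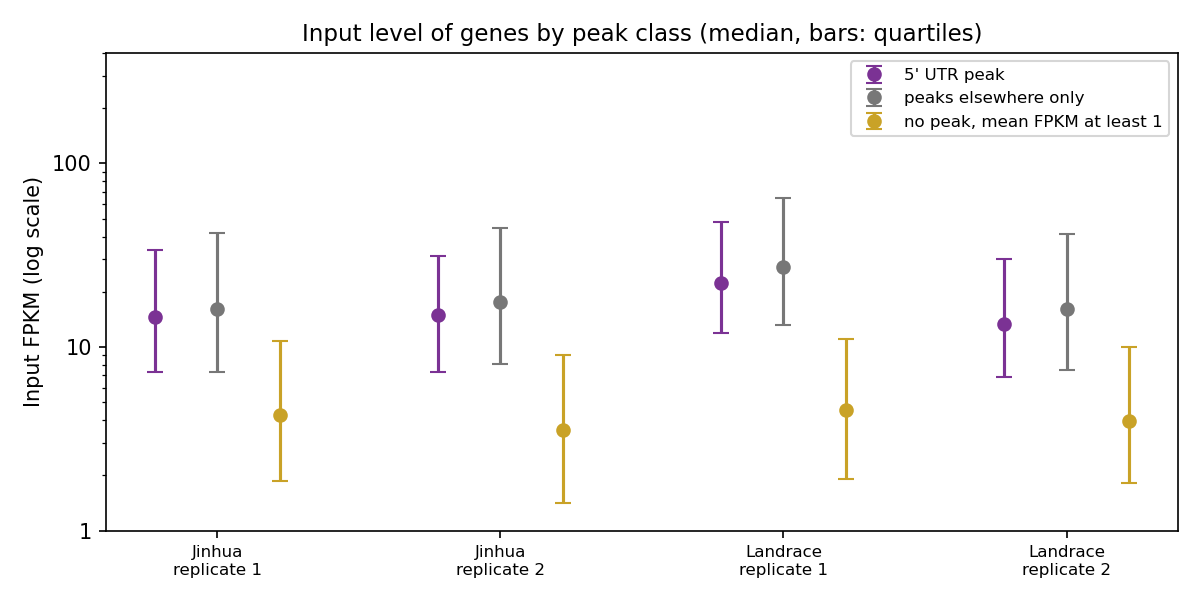
Input FPKM (vertical axis, log scale) of genes with a 5′ UTR peak, with peaks elsewhere only, and with no peak but a mean of at least 1 FPKM, by animal, Jinhua left of Landrace; points are medians and bars reach to the quartiles. In each animal the 5′ UTR class is slightly below the class with peaks elsewhere, and both are above the class without a peak.

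Genes marked in the 5′ UTR often carried no other peak. That was so for 30.1% and 29.9% of them in Jinhua, against 43.1% and 34.4% in Landrace. A coding peak accompanied the 5′ UTR peak in 60.6% and 59.5% of the genes in Jinhua, against 46.2% and 57.2% in Landrace. A 3′ UTR peak was present on 41.5% and 38% of Jinhua genes, and on 40.2% and 40.3% of Landrace genes, that had a 5′ UTR peak and at least 1 further peak. Among genes with peaks but none in the 5′ UTR it was 34.6% and 34.5% in Jinhua and 30.8% and 31.1% in Landrace.

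Input levels of the marked genes did not pass the test between breeds. Of the 1646 genes, 1642 had a mean of at least 1 FPKM and entered the limma test, which adjusts over all 13693 genes that did, and none had an adjusted p under 0.05. Over all genes tested, 0.0365% were called (0.0146% higher and 0.0219% lower in Jinhua). At an unadjusted p under 0.05, 107 marked genes were higher in Jinhua (6.52%, beside 5.85% of all genes tested) and 38 were lower (2.31%, beside 3.87%). Without Landrace replicate 2 the number at that limit was 269 in all, against 145 with every animal. Without Jinhua replicate 1, Jinhua replicate 2 or Landrace replicate 1 it was 16, 19 or 71.

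Both Jinhua animals were above both Landrace animals for 586 marked genes (35.7%, beside 30.2% of all genes tested), and below for 244 (14.9%, beside 18.1%). The median difference, Jinhua minus Landrace in log2(FPKM + 1), was 0.22 for marked genes and 0.15 for all genes, and 0.06 and 0.00 after median-ratio scaling. Without Jinhua replicate 1 the medians were 0.12 and 0.06, without Landrace replicate 1 they were 0.13 and 0.08, and without Landrace replicate 2 they were 0.31 and 0.23. For the 77 genes marked in both Jinhua animals alone it was 0.48, and 38 of them were above in both Jinhua animals (49.4%) and 6 below (7.79%). For the 101 genes marked in both Landrace animals alone it was 0.11, and 31 were above in Jinhua (30.7%) and 23 below (22.8%). Of all genes tested 30.2% were above and 18.1% below, so the 31 were near that share. After median-ratio scaling the medians of the Jinhua and Landrace sets were 0.32 and -0.05, and among genes with a mean of at least 5 FPKM they were 0.36 and 0.29, so the gap between the sets depended on the filter. Without Landrace replicate 2 they were 0.47 and 0.05. The part of input level in which animals listed a peak was not tested.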

How the data were processed

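Adipose tissue of 2 Jinhua and 2 Landrace pigs was analysed. Per the labels' protocols, RNA was enriched for mRNA, sonicated and precipitated with an m6A antibody, and libraries were stranded. Per the submitters' processing notes, TopHat2 2.0.14 and the builds Sscrofa10.2 and susScr3 were used. No source used here names the peak caller. The authors deposited 1 peak list per animal (gene, transcript, start, end, part of the transcript) per the file headers, and a table of 1 input value per gene. The deposited values were taken as FPKM: the file headers name no unit, but the first column carries the name that Cufflinks writes, and the values are neither whole nor logged. A further 4 peak lists and 4 value columns match no sample in the labels and were not used.

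Peaks whose deposited label is 5UTR were kept. Peaks overlapping by at least 1 base on a transcript were joined to regions. Input values were tested as log2(FPKM + 1), for genes with a mean of at least 1 FPKM, with limma 3.58.1 in R 4.3.3 (variance trend, Benjamini-Hochberg adjustment over all genes tested, threshold 0.05), Jinhua minus Landrace. The limma step was tested on simulated data. Shares, widths and medians were compared by exact permutation over animals (Python 3.11.15, scipy 1.17.1). Depth is unknown, and intervals are 95% Wilson intervals. Replicates are taken as separate animals, 2 males per breed per the labels' protocols.

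The members and gene lists were chosen with earlier results of these data known. Genes were named by rule: the 12 with a 5′ UTR peak in every list and the highest mean FPKM; the 6 with the most such peaks; the 6 most abundant marked in both animals of 1 breed alone that had other peaks in all 4 lists, for each breed; and up to 3 members per list marked in every animal. Single gene list members with a peak in fewer animals were added, and some genes that the rule names are not reported here. Symbols came from the lists or the name table, for 1499 of the 1646 genes, and 48 of all symbols differed between them. Alternatives covered overlap, partner label, genes, scaling, filter, pseudocount, replicate block and each animal left out. Replicate numbers do not pair the animals: deviations of same-numbered animals correlated at -0.384.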

Additional observations from a re-analysis of the deposited data

Results flagged for a closer look

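The overlap of 5′ UTR peaks with other animals, set against that of the other peaks of the same animal, moved in opposite directions in the breeds. The difference was 3.50 and 2.84 points in Jinhua replicates 1 and 2, against -1.48 and -6.20 points in Landrace replicates 1 and 2. The breed means differed by 7.01 points (3.17 in Jinhua and -3.84 in Landrace), with p = 0.333 in an exact two-sided permutation test, the smallest that 2 against 2 animals allow. This gap is not independent of the difference in 5′ UTR share between the breeds, since the percentages depend on the number of 5′ UTR peaks in each list. Where the overlapping peak had to carry the same label, the difference was -2.25 and 0.646 points in Jinhua, against -8.86 and -11.8 points in Landrace, so the signs were no longer opposite in Jinhua replicate 1.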

How the results depend on the processing

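The difference in 5′ UTR share between breeds kept its sign in each alternative, from -1.56 to -2.23 points with an animal left out, from -1.73 to -2.59 on genes with a peak in each list, and -2.80 when genes were counted. No peak was narrower than 100 bases, so that filter removed none. The difference in overlap with other animals turned to 0.345 points on genes with a peak in each list, and ranged from -1.44 to 0.831 with an animal left out. It was -1.02 where the overlap had to cover 50% of the shorter peak and -5.57 where the partner needed the same label. Regions found in all lists numbered 256 to 430 with an animal left out; those of Jinhua alone 120 to 333, and of Landrace alone 136 to 491. Restricted after seeing the data to genes with a peak in each list, Jinhua regions fell to 39 and Landrace regions to 90, by construction. No 5′ UTR gene passed the adjusted threshold in any of the 11 alternatives of the limma test. At an unadjusted p under 0.05, 145 did, with 16 to 269 when an animal was left out. With the replicate block, which the data do not bear out as a pairing, there were 54, and with the crossed numbers, a pairing added after seeing the data, 154. Depth is unknown, so whether a missing peak reflects few reads could not be tested, and with 2 animals per breed no permutation p between breeds can fall under 0.333.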
